A study of Rattus norvegicus with 16 samples.

Results

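The enzymes that make and conjugate bile acids, together with the receptor gene Fgfr4, were followed in the livers of rats given 3 related dithiolethiones. The members were chosen by name, with earlier results of these data known: Cyp7a1, Cyp27a1, Hsd3b7, Akr1c14, Scp2, Baat, Slc27a5 and Fgfr4. Every probe set whose only annotated symbol was a member was taken, which gave 12 probe sets of the 8740 on the array, for 7 of the 8 named genes. All 12 were among the 5323 probe sets that passed the filter on dim values and were tested, so none was lost to it. No probe set carried Slc27a5, the bile acid CoA ligase, as its single symbol, and it was not analysed here.

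Gene expression was measured on 1-colour oligonucleotide arrays in total liver RNA of 16 male Fischer F344 rats, randomly assigned to 4 groups with 4 arrays each, and all values below are log2 expression values. The rats were 6 weeks old on arrival, lived in single cages on the same chow, and were gavaged every other day for 5 days, with livers taken 24 h after the third dose. The D3T group received 0.3 mmol/kg of 3H-1,2-dithiole-3-thione, the ring without a substituent. The OLT group received 0.3 mmol/kg of oltipraz, whose ring carries a methyl and a pyrazinyl group. The TBD group received 0.3 mmol/kg of the ring with a tert-butyl group. The vehicle group received saturated sucrose, although its samples are titled as without treatment. Dithiolethiones are known as inducers of genes driven by the transcription factor NRF2.

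Bile acids are made from cholesterol in hepatocytes. The classical route opens with Cyp7a1, which adds a hydroxyl group to the sterol ring and sets the rate of the route, and Hsd3b7 and a pair of reductases then remodel the ring. Cyp27a1 oxidises the side chain and also opens the alternative route, the thiolase form encoded by Scp2 shortens the side chain in peroxisomes, and Slc27a5 and Baat join the product to taurine or glycine. Fgfr4 is the hepatocyte receptor for a fibroblast growth factor that the ileum releases when bile acids return there, and its signal is known to lower Cyp7a1.

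Array medians ran from 3.27 to 3.58, a range that the vehicle arrays alone spanned. OLT replicate 1 and TBD replicate 4 had the highest values on the second principal component over the tested probe sets, at 21.7 and 21.8. The other OLT arrays ran from -8.6 to 12.6 there, and the other TBD arrays from -6.8 to 8.7. These 2 are called the arrays that stand apart, and some results without both are given below. On the first principal component they were the arrays of their groups nearest to vehicle, at 2.95 and 1.41. The other OLT arrays lay at -1.82 or lower there, and the other TBD arrays at -8.89 or lower. Vehicle replicates 1 to 4 lay at 16.96, 38.83, 22.89 and 38.54. Leaving out both therefore removed the OLT and TBD arrays nearest to vehicle on the first component. Hepatocyte markers were at high levels on every array, with a mean over 9 tested markers of 13.59 to 13.72 in D3T, 13.33 to 13.65 in OLT, 13.46 to 13.71 in TBD and 13.58 to 13.75 in vehicle livers. The 4 tested cholangiocyte markers averaged 4.15 to 4.33, 4.03 to 4.23, 4.19 to 4.27 and 3.93 to 4.52 in the D3T, OLT, TBD and vehicle groups, and 0 of the 4 passed the limma test with any compound, nor did any of them at an unadjusted p under 0.05 with D3T or OLT, while 1 did, upward, with TBD.

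By their brightest probe sets, most of the members were lower with D3T, and 3 of them were lower with each compound: Fgfr4, Scp2 and Akr1c14. A probe set was called where limma's Benjamini-Hochberg adjusted p over all 5323 tested probe sets was under 0.05. With D3T, 7 of the 12 member probe sets were called lower, for 6 of 7 genes, against 12.2% of all tested probe sets and 13.1% of all 3104 tested genes called lower in that comparison. With TBD, 6 of 12 were called lower, for 5 genes, against 9.47% of all tested probe sets and 10.0% of genes. With OLT, 3 of 12 were called lower, for 3 genes, against 7.89% of all tested probe sets and 8.92% of genes. None of the 12 was called higher in these 3 comparisons, where 6.18%, 3.38% and 3.55% of all tested probe sets were called higher with D3T, OLT and TBD, and at an unadjusted p under 0.05 1 Cyp7a1 probe set was higher with D3T, beside 12.4% of all. The median difference from vehicle over the 12 probe sets was -0.65 with D3T, -0.51 with OLT and -0.67 with TBD, beside 0.04, -0.03 and -0.02 over all tested probe sets. Renewed quantile normalization moved the balance of all calls from 329 higher and 652 lower to 672 and 599 for D3T, from 180 and 420 to 298 and 343 for OLT, and from 189 and 504 to 312 and 383 for TBD. Under it 7 member probe sets were called lower with D3T and 4 each with OLT and TBD, and 1 was called higher with D3T.

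**Figure D1:**
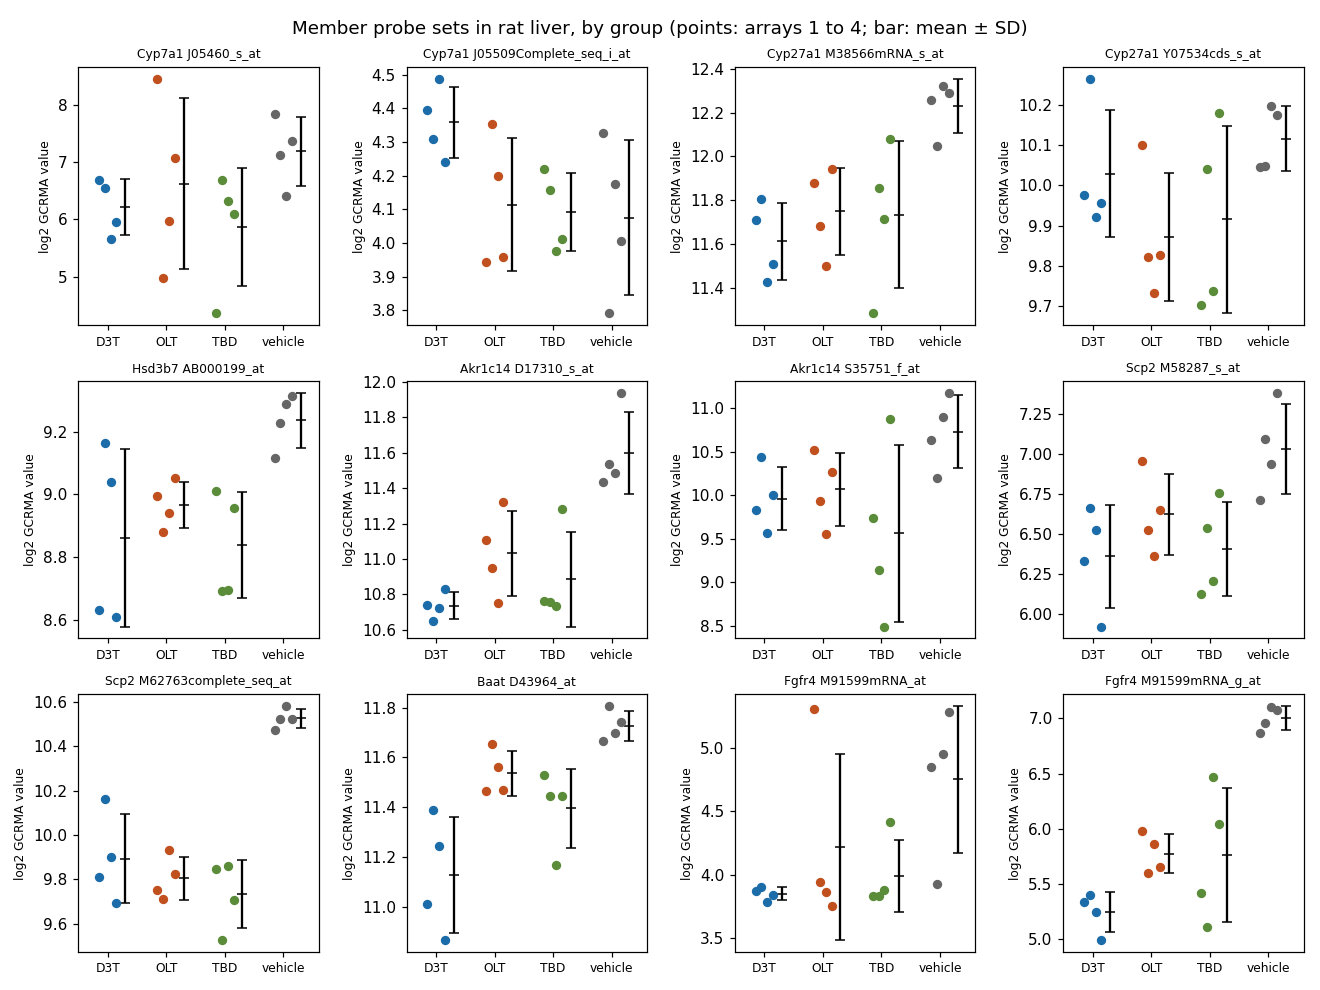
Log2 expression values of the 12 member probe sets in D3T, OLT, TBD and vehicle livers. Each point is an array, the bar is the mean ± SD of 4 arrays, and each panel has its own vertical scale, which does not start at 0. For Fgfr4 M91599mRNA_g_at and Scp2 M62763complete_seq_at the arrays of all 3 compound groups lie below the 4 vehicle arrays.

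The start regions of the genes called lower with all 3 compounds are shown. Whether these genes are regulated together was not tested. They are the RefSeq promoter windows of assembly GRCr8, from 250 bases before to 50 bases after the annotated start, read on the coding strand. Capitals mark a match to a searched motif, and no capitals mean no match. The Fgfr4 window lies at chr17:9481340-9481639, minus strand, the Scp2 window at chr5:128109966-128110265, minus strand, and the Akr1c14 window at chr17:71083135-71083434, minus strand.
Fgfr4: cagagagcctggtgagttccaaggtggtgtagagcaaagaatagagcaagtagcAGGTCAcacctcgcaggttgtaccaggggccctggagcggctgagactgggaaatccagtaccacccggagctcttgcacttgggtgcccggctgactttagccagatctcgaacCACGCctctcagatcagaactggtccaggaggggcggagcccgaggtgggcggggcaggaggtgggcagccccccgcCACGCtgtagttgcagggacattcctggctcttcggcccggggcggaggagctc
Scp2: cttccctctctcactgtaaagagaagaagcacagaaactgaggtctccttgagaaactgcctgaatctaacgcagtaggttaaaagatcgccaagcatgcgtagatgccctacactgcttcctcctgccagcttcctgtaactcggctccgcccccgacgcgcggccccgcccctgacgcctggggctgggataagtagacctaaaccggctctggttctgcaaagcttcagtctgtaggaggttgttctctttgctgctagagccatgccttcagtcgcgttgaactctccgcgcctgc
Akr1c14: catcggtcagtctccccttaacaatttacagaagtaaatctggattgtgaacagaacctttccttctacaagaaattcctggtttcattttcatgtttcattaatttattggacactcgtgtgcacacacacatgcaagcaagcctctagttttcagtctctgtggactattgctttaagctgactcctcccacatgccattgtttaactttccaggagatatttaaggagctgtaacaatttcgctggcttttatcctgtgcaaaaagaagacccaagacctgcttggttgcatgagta

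A set of 3 short motifs was searched on both strands of the windows of the 7 members that the RefSeq table holds. TGACNNNGC, the core of the antioxidant response element, matched 0 of 7 windows and 12.1% of all 33469 windows of that length. AGGTCA, the hexamer read by many nuclear receptors, matched the windows of Cyp27a1 and Fgfr4, and 16.2% of all windows. In Fgfr4 it began at position -196 from the start. GCGTG, the core read by the aryl hydrocarbon receptor, matched the windows of Fgfr4 and Slc27a5, and 29.7% of all windows, with the Fgfr4 matches on the other strand at positions -81 and -4. The motifs share no letters in these windows. The GC content was 63.3% in the Fgfr4 window, 56.0% in the Scp2 window and 40.7% in the Akr1c14 window, beside a median of 51.7% over all windows.

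The rate-setting enzyme Cyp7a1 (chr5:24174505-24184202 on GRCr8) has 2 probe sets, none of them called, whose differences from vehicle had opposite signs with each compound. The brighter, J05460_s_at, read 6.69, 6.54, 5.67 and 5.96 in the D3T livers, 8.44, 4.99, 5.98 and 7.08 in the OLT livers, 4.37, 6.69, 6.33 and 6.10 in the TBD livers, and 7.84, 7.13, 6.41 and 7.36 in the vehicle livers. The OLT arrays spanned the whole vehicle range and beyond, OLT replicate 1 was the highest of all 16, TBD replicate 1 the lowest, and the D3T and TBD arrays overlapped the vehicle arrays. Its group means were 6.22 ± 0.48, 6.62 ± 1.49 and 5.87 ± 1.03 with D3T, OLT and TBD, and 7.19 ± 0.59 with vehicle (SD, n = 4 each). The difference from vehicle was -0.97 with D3T (95% interval -2.33 to 0.39, limma adjusted p = 0.331), -0.56 with OLT (-1.92 to 0.80, adjusted p = 0.812) and -1.32 with TBD (-2.67 to 0.04, adjusted p = 0.223). These intervals hold both no change and a fall of more than 3.38-fold, the size seen for Fgfr4 with D3T. Over the mean of the 3 compounds the difference was -0.95 ± 0.52 (adjusted p = 0.249). Without OLT replicate 1 the OLT difference became -1.17.

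The dimmer Cyp7a1 probe set, J05509Complete_seq_i_at, read 4.40, 4.31, 4.49 and 4.24 in the D3T livers, 3.94, 4.35, 4.20 and 3.96 in the OLT livers, 4.22, 4.16, 3.98 and 4.01 in the TBD livers, and 4.33, 3.79, 4.18 and 4.01 in the vehicle livers. The D3T arrays were among the highest, with vehicle replicate 1 inside their range. The D3T difference was 0.28 (interval 0.02 to 0.54, adjusted p = 0.126). It was called higher without vehicle replicate 1 (0.37, adjusted p = 0.0452), after quantile normalization (0.24, adjusted p = 0.0358) and after centring of the array medians (0.23, adjusted p = 0.0164). The differences with OLT and TBD were 0.04 and 0.02, and both changed sign when single arrays were left out. By the maker's naming, a probe set ending in _i_at has fewer probes than usual, and one ending in _s_at can match more than 1 transcript. All 12 member probe sets lay above the median of each of the 16 arrays. This probe set and Fgfr4 M91599mRNA_at were the dimmest, with lowest values of 3.79 and 3.75 beside array medians of 3.27 to 3.58. In the vehicle livers the values of J05509Complete_seq_i_at had the same order as the array medians, which were 3.58, 3.27, 3.46 and 3.39. They also had the same order in the TBD livers, but not exactly in the D3T and OLT livers.

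Cyp27a1, the mitochondrial sterol side chain hydroxylase (chr9:83712402-83743222), fell by its brighter probe set with D3T and TBD. That probe set, M38566mRNA_s_at, read 11.71, 11.81, 11.43 and 11.51 in the D3T livers, 11.88, 11.68, 11.50 and 11.94 in the OLT livers, 11.29, 11.86, 11.72 and 12.08 in the TBD livers, and 12.26, 12.05, 12.32 and 12.29 in the vehicle livers. The D3T and OLT arrays lay below all vehicle arrays, and TBD replicate 4 lay just above the lowest vehicle array. The differences from vehicle were -0.62 ± 0.15 with D3T (1.53-fold lower, adjusted p = 0.0115), -0.48 ± 0.15 with OLT (interval -0.80 to -0.15, adjusted p = 0.0562) and -0.50 ± 0.15 with TBD (1.41-fold lower, adjusted p = 0.0453). The TBD call was lost in 17 of 29 alternative analyses, among them leaving out any of vehicle replicates 1 to 4, D3T replicates 1, 3 and 4, OLT replicates 1 and 2 or TBD replicates 1 to 3, the difference being smallest, at -0.35 (adjusted p = 0.126), without TBD replicate 1. Without both arrays that stand apart the OLT difference was -0.52 (adjusted p = 0.0391). The second probe set, Y07534cds_s_at, read 9.92 to 10.26 in the D3T livers, 9.73 to 10.10 in the OLT livers, 9.70 to 10.18 in the TBD livers and 10.05 to 10.20 in the vehicle livers, and all groups overlapped. Its differences of -0.09, -0.24 and -0.20 with D3T, OLT and TBD did not pass (adjusted p = 0.67, 0.238 and 0.347), and the D3T difference became 0.00499 after quantile normalization. With the mean of both probe sets the D3T difference of Cyp27a1 was -0.35 (adjusted p = 0.0764).

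Hsd3b7, which oxidises the 3-hydroxyl of the ring (chr1:191842688-191845919), fell with D3T and TBD. Its probe set AB000199_at read 8.63, 9.17, 9.04 and 8.61 in the D3T livers, 8.99, 8.88, 8.94 and 9.05 in the OLT livers, 9.01, 8.69, 8.69 and 8.96 in the TBD livers, and 9.12, 9.23, 9.29 and 9.32 in the vehicle livers. The OLT and TBD arrays lay below all vehicle arrays, while the D3T arrays fell into a high pair and a low pair and D3T replicate 2 lay above vehicle replicate 1. The differences were -0.38 ± 0.12 with D3T (1.3-fold lower, adjusted p = 0.0476), -0.27 ± 0.12 with OLT (adjusted p = 0.203) and -0.40 ± 0.12 with TBD (1.32-fold lower, adjusted p = 0.0476). The D3T call was lost in 18 of 29 alternatives, and dropping D3T replicate 4 left the smallest difference over single arrays, -0.29 (adjusted p = 0.149). The single arrays whose loss ended it were D3T replicates 1 and 4, each OLT replicate, TBD replicates 2 and 4 and vehicle replicates 2, 3 and 4. The TBD call was lost in 17 of 29, also without D3T replicate 3, without any OLT replicate, without TBD replicate 2 or 3 and without vehicle replicate 2, 3 or 4, the smallest difference being -0.35 (adjusted p = 0.136) without TBD replicate 2. Quantile normalization reduced the differences to -0.18 with D3T (adjusted p = 0.338) and -0.22 with TBD (adjusted p = 0.333). The D3T and TBD calls of Hsd3b7 were also lost without both arrays that stand apart.

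Akr1c14, a 3-alpha-hydroxysteroid dehydrogenase of the ring reduction steps (chr17:71066197-71083184), fell with all 3 compounds. Its brighter probe set, D17310_s_at, read 10.74, 10.65, 10.72 and 10.83 in the D3T livers, 11.11, 10.95, 10.75 and 11.32 in the OLT livers, 10.76, 10.76, 10.73 and 11.28 in the TBD livers, and 11.43, 11.54, 11.48 and 11.94 in the vehicle livers. Every compound array lay below every vehicle array. The differences were -0.86 ± 0.15 with D3T (1.82-fold lower, adjusted p = 0.00115), -0.57 ± 0.15 with OLT (1.48-fold lower, adjusted p = 0.0229) and -0.71 ± 0.15 with TBD (1.64-fold lower, adjusted p = 0.00561). The OLT call ended without OLT replicate 2 (-0.54, adjusted p = 0.0616), OLT replicate 3 (-0.47, adjusted p = 0.0768) or vehicle replicate 4 (-0.45, adjusted p = 0.0755), and after centring (-0.54, adjusted p = 0.108). It also ended when only the groups compared were fitted (-0.57, adjusted p = 0.0627) and with the mean of both Akr1c14 probe sets (-0.61, adjusted p = 0.154). The second probe set, S35751_f_at, read 9.83, 10.44, 9.57 and 10.00 in the D3T livers, 10.52, 9.93, 9.56 and 10.27 in the OLT livers, 9.74, 9.13, 8.49 and 10.88 in the TBD livers, and 10.63, 10.19, 10.90 and 11.18 in the vehicle livers. TBD replicate 4 was far above the other TBD arrays and inside the vehicle range. Its differences were -0.77 with D3T, -0.66 with OLT and -1.17 with TBD (adjusted p = 0.212, 0.382 and 0.0721), and without TBD replicate 4 the TBD difference was -1.61 (adjusted p = 0.0038). An ending in _f_at marks probes shared within a gene family, and Akr1c14 has close paralogs, so which Akr1c transcripts these values hold is uncertain.

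Scp2, which encodes the peroxisomal thiolase that cleaves the bile acid side chain and, from the same gene, a sterol carrier protein (chr5:128035714-128110015), fell with all 3 compounds. The brighter probe set, M62763complete_seq_at, read 9.81, 10.16, 9.90 and 9.69 in the D3T livers, 9.75, 9.71, 9.93 and 9.82 in the OLT livers, 9.85, 9.53, 9.86 and 9.71 in the TBD livers, and 10.48, 10.52, 10.58 and 10.53 in the vehicle livers. Every compound array lay below every vehicle array, and the vehicle arrays lay close together (SD 0.04). The differences were -0.63 ± 0.10 with D3T (1.55-fold lower, adjusted p = 0.000755), -0.72 ± 0.10 with OLT (1.65-fold lower, adjusted p = 0.000605) and -0.79 ± 0.10 with TBD (1.73-fold lower, adjusted p = 0.000234). The 3 calls were kept in all 29 alternatives. In bulk liver RNA, fewer cells of a type and less RNA per cell cannot be told apart, for this gene and for the others. The second probe set, M58287_s_at, read 6.33, 6.66, 6.53 and 5.92 in the D3T livers, 6.96, 6.52, 6.36 and 6.65 in the OLT livers, 6.13, 6.54, 6.20 and 6.76 in the TBD livers, and 6.71, 7.09, 6.94 and 7.38 in the vehicle livers. The D3T arrays lay below all vehicle arrays, and OLT replicate 1 and TBD replicate 4 reached into the vehicle range. It fell by 0.67 with D3T (adjusted p = 0.0261) and by 0.63 with TBD (adjusted p = 0.0472), and differed by -0.41 with OLT (adjusted p = 0.226). Its D3T call was lost without D3T replicate 1 or 4 or vehicle replicate 2 or 4, and the difference was smallest, at -0.52 (adjusted p = 0.0869), when D3T replicate 4 was dropped. Its TBD call was lost in 16 of 28 alternatives, with single losses of D3T replicate 1 or 3, OLT replicate 2 or 4, TBD replicate 1, 2 or 3 and vehicle replicate 2, 3 or 4, the smallest difference being -0.51 (adjusted p = 0.143) without vehicle replicate 4.

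Baat, the enzyme that conjugates bile acids to glycine or taurine (chr5:68647166-68656137), fell with D3T. Its probe set D43964_at read 11.01, 11.39, 11.24 and 10.87 in the D3T livers, 11.46, 11.65, 11.56 and 11.47 in the OLT livers, 11.53, 11.44, 11.17 and 11.45 in the TBD livers, and 11.67, 11.81, 11.70 and 11.74 in the vehicle livers. The vehicle arrays lay above all others, and the D3T arrays lay below all OLT arrays. The difference from vehicle was -0.60 ± 0.11 with D3T (1.52-fold lower, adjusted p = 0.00177), a call kept in all 29 alternatives. It was -0.19 ± 0.11 with OLT (interval -0.43 to 0.04, adjusted p = 0.346) and -0.33 ± 0.11 with TBD (interval -0.57 to -0.10, adjusted p = 0.0632). The TBD difference was called when D3T replicate 2 (adjusted p = 0.0427) or D3T replicate 4 (adjusted p = 0.0435) was left out of the shared estimate of the spread.

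Fgfr4, the receptor (chr17:9466686-9481423), had the largest called fall of the members with each compound, by its brighter probe set alone. Its brighter probe set, M91599mRNA_g_at, read 5.34, 5.40, 5.25 and 4.99 in the D3T livers, 5.98, 5.60, 5.86 and 5.66 in the OLT livers, 5.42, 5.11, 6.47 and 6.04 in the TBD livers, and 6.87, 6.96, 7.10 and 7.08 in the vehicle livers. Every compound array lay below every vehicle array, the D3T arrays lay below all OLT arrays, and the TBD arrays were the most spread, with replicate 3 nearest to vehicle. The differences were -1.76 ± 0.22 with D3T (3.38-fold lower, adjusted p = 0.000137), -1.23 ± 0.22 with OLT (2.34-fold lower, adjusted p = 0.00257) and -1.24 ± 0.22 with TBD (2.36-fold lower, adjusted p = 0.00206). These 3 calls were kept in all 29 alternatives, and without both arrays that stand apart the OLT and TBD differences were -1.29 and -1.34.

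The second Fgfr4 probe set, M91599mRNA_at, is dimmer and read 3.88, 3.91, 3.78 and 3.84 in the D3T livers, 5.31, 3.94, 3.87 and 3.75 in the OLT livers, 3.83, 3.83, 3.88 and 4.41 in the TBD livers, and 4.84, 3.93, 4.95 and 5.28 in the vehicle livers. OLT replicate 1 and vehicle replicate 2 sat with the opposite group, and TBD replicate 4 lay above the other TBD arrays. Its differences of -0.90 with D3T, -0.53 with OLT and -0.76 with TBD did not pass (adjusted p = 0.065, 0.37 and 0.148). Without OLT replicate 1 they were called with each compound, at -0.90 (adjusted p = 0.0132), -0.90 (adjusted p = 0.0314) and -0.76 (adjusted p = 0.0385). Without vehicle replicate 2 the D3T and TBD differences were called, at -1.17 (adjusted p = 0.0201) and -1.03 (adjusted p = 0.0482).

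**Figure D2:**
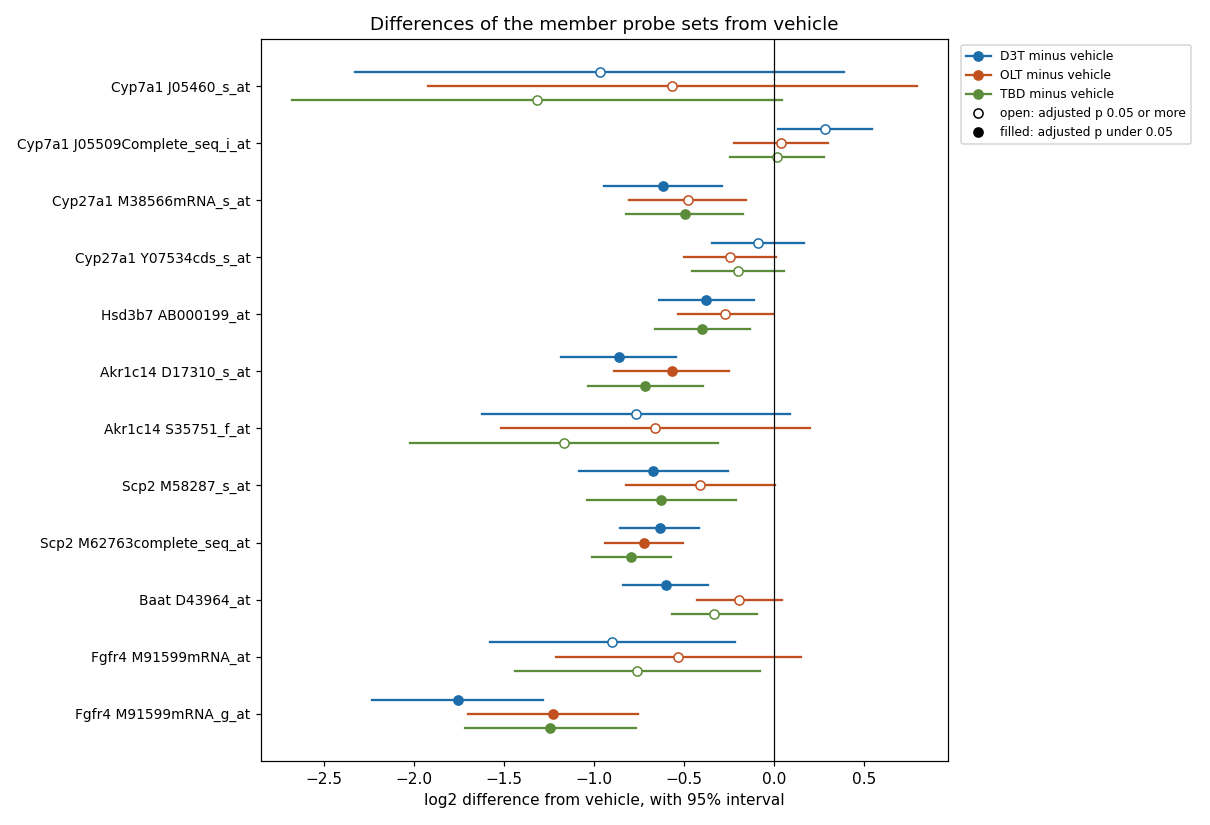
Log2 differences of the 12 member probe sets from vehicle with D3T, OLT and TBD, with 95% intervals from the limma fit. Filled points have an adjusted p under 0.05 over all 5323 tested probe sets. Fgfr4 M91599mRNA_g_at, Scp2 M62763complete_seq_at and Akr1c14 D17310_s_at are filled with each compound, and the Cyp7a1 J05460_s_at intervals all cross 0.

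Across the 12 probe sets, 3 were called lower with all 3 compounds, 3 with 2 compounds, 1 with 1 compound and 5 with none. The 3 called with D3T and TBD were Cyp27a1 M38566mRNA_s_at, Hsd3b7 and Scp2 M58287_s_at, and the 1 called with D3T alone was Baat. The compound groups share the vehicle arrays, so these calls are not independent of each other. The groups did not overlap, with the compound arrays lower, for 7, 6 and 5 of 12 probe sets with D3T, OLT and TBD, beside 15.8%, 9.79% and 10.3% of all tested probe sets. For the mean of the 3 compounds against vehicle, 7 of 12 were called lower, for 6 genes, beside 14.3% of all tested probe sets and 15.4% of genes, and the median member difference was -0.64 beside 0.00 over all tested probe sets. The pooled differences were -1.41 ± 0.18 for Fgfr4 (2.65-fold lower, adjusted p = 0.000112), -0.72 ± 0.08 for Scp2 (1.64-fold lower, adjusted p = 5.35e-05), -0.71 ± 0.12 for Akr1c14 (1.64-fold lower, adjusted p = 0.000822), -0.53 ± 0.12 for Cyp27a1 (adjusted p = 0.00699), -0.37 ± 0.09 for Baat (adjusted p = 0.00814) and -0.35 ± 0.10 for Hsd3b7 (adjusted p = 0.0241). The number called lower with TBD fell to 3 without D3T replicate 3, OLT replicate 2, TBD replicate 2 or 3 or vehicle replicate 3 or 4. Without both arrays that stand apart it was 7, 5 and 7 with D3T, OLT and TBD.

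**Figure D3:**
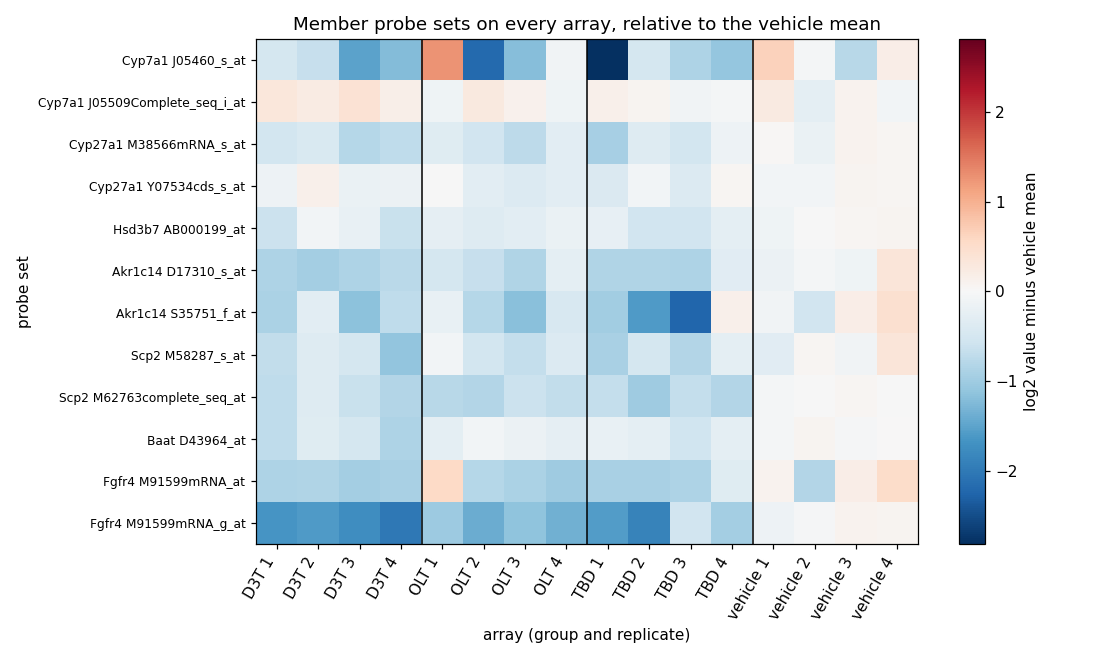
Log2 value minus the vehicle mean for each member probe set (rows) on each of the 16 arrays (columns, D3T, OLT, TBD, then vehicle), blue for lower and red for higher. The Fgfr4 M91599mRNA_g_at row is blue on all 12 compound arrays, and OLT replicate 1 and TBD replicate 4 are paler than their groups in several rows.

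Single arrays of a group did not sit at the same level across the members. D3T replicate 2 was the highest of its group at 9 of 12 probe sets, and D3T replicate 4 the lowest at 6. OLT replicate 1 and TBD replicate 4, the arrays that stand apart, were each the highest of their group at 6 of 12. Over the 12 probe sets the median difference from the vehicle mean was -0.37 on D3T replicate 2 and from -0.71 to -0.80 on the other D3T arrays. It was -0.22 on OLT replicate 1, -0.29 on OLT replicate 4 and -0.60 and -0.70 on the other OLT arrays, and it was -0.28 on TBD replicate 4 and from -0.52 to -0.87 on the other TBD arrays. On single vehicle arrays it ran from -0.07 to 0.08, so all 12 compound arrays lay below the 4 vehicle arrays by this measure. The vehicle mean comes from these same 4 arrays, which holds them close to it. The measure restates the group differences above and adds no separate evidence.

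The next question was whether the compounds, which differ in the substituents of the ring, changed the members to different degrees. All were given at the same dose and sampled at the same time, and 3 pairs were compared over the 12 probe sets, with p-values adjusted over all 5323 tested probe sets within each pair. No member passed in any pair by limma, where 1.07%, 0.0564% and 0.658% of all tested probe sets passed in either direction for D3T against OLT, TBD against OLT and D3T against TBD. At an unadjusted p under 0.05 there were 2, 0 and 3 member probe sets in these pairs, beside 12.3%, 2.72% and 10.0% of all tested probe sets. Baat was lower with D3T than with OLT by -0.41 (interval -0.64 to -0.17, adjusted p = 0.11), with groups that did not overlap, and it differed by -0.27 between D3T and TBD (-0.50 to -0.03, adjusted p = 0.402). Fgfr4 differed by -0.53 between D3T and OLT (-1.004 to -0.06, adjusted p = 0.342) and by -0.52 between D3T and TBD (-0.99 to -0.04, adjusted p = 0.426). The dimmer Cyp7a1 probe set, J05509Complete_seq_i_at, went the other way and was higher with D3T than with TBD by 0.27 (0.01 to 0.53, adjusted p = 0.469), with groups that did not overlap. The substituted compounds TBD and OLT differed for Fgfr4 by -0.01, with an interval from -0.49 to 0.46. For Scp2 M62763complete_seq_at the intervals were narrowest, at -0.13 to 0.31 for D3T against OLT, -0.29 to 0.15 for TBD against OLT and -0.06 to 0.38 for D3T against TBD. For Cyp7a1 J05460_s_at they were the widest, at -1.76 to 0.95, -2.11 to 0.61 and -1.01 to 1.71 for the same pairs. A fold of 1.44, the size of the Fgfr4 difference between D3T and OLT, therefore lies inside the Cyp7a1 intervals in both directions.

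Of 20 other genes of bile acid synthesis, 11 were tested. With D3T 1 was called higher and 2 lower, with OLT 3 lower and with TBD 2 lower, by the same limma fit and each gene's brightest probe set. Por, the reductase that feeds electrons to microsomal P450 enzymes such as Cyp7a1, averaged 8.42 ± 0.29 in D3T, 8.16 ± 0.77 in OLT and 8.02 ± 0.22 in TBD livers, against 9.67 ± 0.13 in vehicle livers (SD, n = 4 each). Its falls were -1.25 with D3T (adjusted p = 0.00675), -1.52 with OLT (adjusted p = 0.00322) and -1.65 with TBD (adjusted p = 0.00156), with groups that did not overlap. Sult2a1, a sulfotransferase of bile acids and steroids, averaged 9.07 ± 0.62, 10.42 ± 0.20 and 9.44 ± 0.95 in D3T, OLT and TBD livers, against 11.87 ± 0.25 in vehicle livers. Its differences were -2.80 with D3T (adjusted p = 0.000246), -1.45 with OLT (adjusted p = 0.0237) and -2.43 with TBD (adjusted p = 0.000912), on a probe set whose ending marks a gene family. Its OLT call was lost without OLT replicate 2 or 4 or vehicle replicate 2 or 4. Abcd3, a peroxisomal importer of side chain intermediates, rose with D3T by 1.45 (adjusted p = 0.023), and this call was lost without D3T replicate 1 or 4 or vehicle replicate 4. Hsd17b10, a mitochondrial dehydrogenase, fell with OLT by 0.59 (adjusted p = 0.0352), a call lost in 10 of 29 alternatives. Among them were leaving out OLT replicate 1, 2 or 3, vehicle replicate 2 or 4, or both arrays that stand apart.

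The remaining steps around the members gave no call by the brightest probe set. Akr1d1, the reductase that acts just before Akr1c14, differed by 0.04, -0.05 and -0.32 with D3T, OLT and TBD, while its second probe set rose by 0.90, 0.98 and 0.65 (adjusted p = 0.00533, 0.00473 and 0.0407), so its probe sets disagree. Amacr, which racemises the side chain, differed by -0.23, -0.25 and -0.43. Acox2, the peroxisomal oxidase that acts on the side chain before Scp2, differed by -0.54, -1.28 (adjusted p = 0.053) and -0.78. Cyp8b1 and Cyp7b1 were not analysed here.

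Of 21 regulators, 11 were tested, and 1 was called higher and 2 lower with D3T, 1 higher and 2 lower with OLT, and 2 lower with TBD. Nr0b2, the nuclear receptor SHP that bile acids induce in liver and that represses Cyp7a1, read 7.88, 8.65, 9.37 and 6.86 in the D3T livers, 8.18, 7.07, 7.82 and 7.37 in the OLT livers, 7.25, 7.20, 7.68 and 7.46 in the TBD livers, and 9.43, 8.75, 9.10 and 9.15 in the vehicle livers. The OLT and TBD arrays lay below all vehicle arrays, and D3T replicate 3 lay in the vehicle range. Its differences were -1.496 with OLT (adjusted p = 0.0254), -1.71 with TBD (adjusted p = 0.0115) and -0.92 with D3T (adjusted p = 0.133), and the D3T difference was -1.31 (adjusted p = 0.0228) without D3T replicate 3. The OLT call was lost without OLT replicate 2 or 4 or vehicle replicate 1 or 4, at adjusted p from 0.0579 to 0.0818. Cebpb, a hepatocyte transcription factor, fell by 0.87, 1.31 and 1.04 with D3T, OLT and TBD (adjusted p = 0.0159, 0.00217 and 0.00773), and in all 3 comparisons the call was kept in 29 of 29 alternatives. Nr1h4, the bile acid receptor FXR, rose by 0.32 with OLT (adjusted p = 0.0237) and differed by 0.11 and 0.03 with D3T and TBD, and the OLT call was lost without OLT replicate 4 or vehicle replicate 3 or 4. With D3T the other calls were a rise of Cebpa by 0.63 (adjusted p = 0.0106) and a fall of Zfp36l1, an RNA-binding protein known in mice to act on Cyp7a1 messenger RNA, by 0.65 (adjusted p = 0.026). The Zfp36l1 call was lost without D3T replicate 3 or vehicle replicate 2, 3 or 4.

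Of 14 genes of FGF receptors and their signalling other than Fgfr4, 5 were tested and none passed the limma test with any compound, where 1, 1 and 0 were lower at an unadjusted p under 0.05 with D3T, OLT and TBD. The co-receptor Klb was not analysed here.

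Of 15 bile acid transporters, 8 were tested, and 4 were called lower with D3T, 1 higher and 1 lower with OLT and 1 lower with TBD. Slco1a1, a sinusoidal uptake carrier, averaged 6.27 ± 0.13, 6.80 ± 0.43 and 6.25 ± 0.22 in D3T, OLT and TBD livers, against 8.49 ± 0.35 in vehicle livers, with falls of -2.22, -1.69 and -2.24 (adjusted p = 1.1e-05, 0.000171 and 1.91e-05). Slc10a1, the sodium-dependent bile acid uptake carrier, fell with D3T by 0.48 (adjusted p = 0.0121) and differed by -0.12 and -0.33 with OLT and TBD. Abcb11, the bile salt export pump, fell with D3T by 0.65 (adjusted p = 0.0095) and differed by -0.04 and -0.13 with OLT and TBD. Abcb4, the phospholipid floppase of the canalicular membrane, fell with D3T by 0.83 (adjusted p = 0.0187), a call lost without D3T replicate 1 or 2. Abcc2, a canalicular export pump, rose with OLT by 0.52 (adjusted p = 0.0353), a call lost in 12 of 29 alternatives. The fit without both arrays that stand apart was among these.

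**Figure D4:**
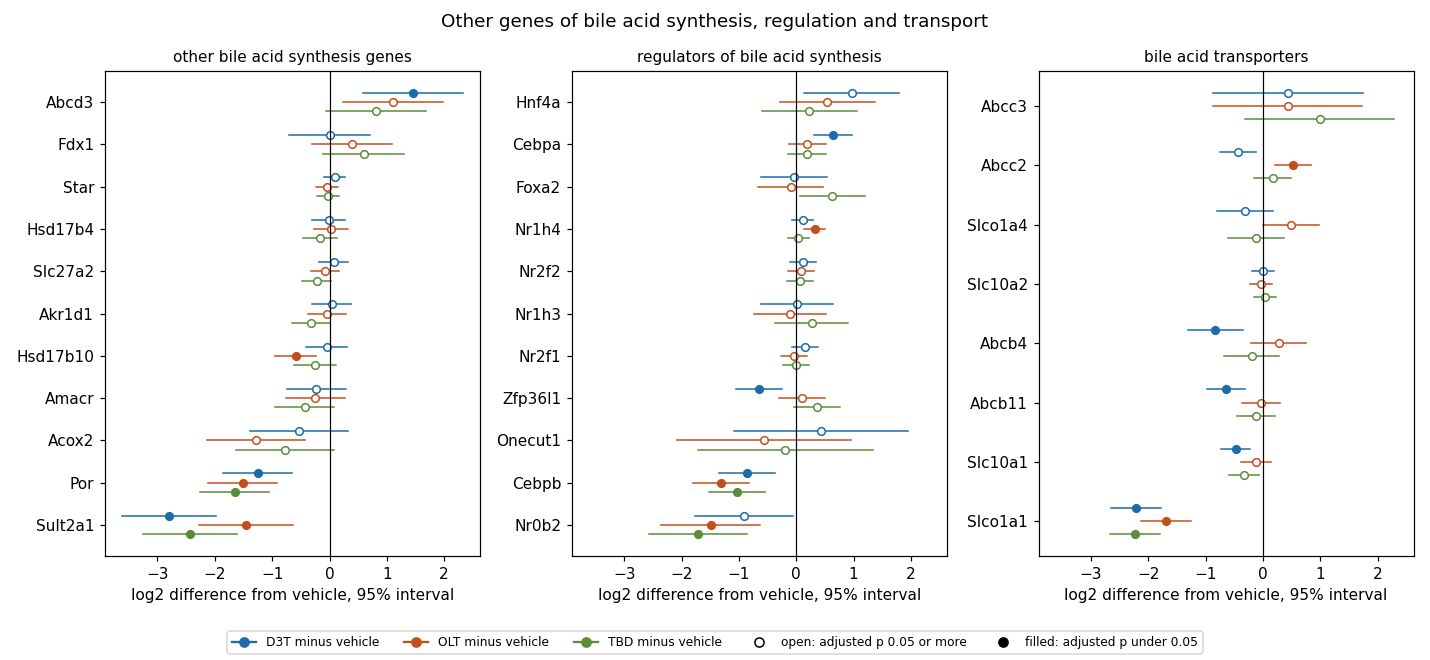
Log2 differences from vehicle with 95% intervals for the tested genes of 3 lists, with D3T, OLT and TBD in separate colours. Filled points have an adjusted p under 0.05. Por, Sult2a1, Cebpb and Slco1a1 are filled and below 0 with each compound.

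Of 10 genes of cholesterol supply, the substrate of the pathway, 3 were tested. The squalene epoxidase Sqle read 2.86 to 3.00 in D3T, 3.02 to 3.69 in OLT and 2.90 to 5.90 in TBD livers, against 5.97 to 8.10 in vehicle livers, with differences of -3.86, -3.56 and -3.10 (adjusted p = 0.000478, 0.00165 and 0.00276). It lay below the array median on 10 of 16 arrays, where values depend on the background model, so no fold is given. Cyp51, a sterol demethylase, fell with D3T by 1.27 (adjusted p = 0.0114), and Scarb1, the receptor that takes up cholesterol from lipoproteins, rose with OLT by 1.33 (adjusted p = 0.0305), a call lost without OLT replicate 2, 3 or 4 or vehicle replicate 4. The Scarb1 call was also lost with the mean of its probe sets and when only the groups compared were fitted. Over all alternatives its lowest difference with OLT was 0.53.

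Other gene groups were followed beside the members, and not all of them moved. Of all tested genes, 13.1%, 8.92% and 10.0% were called lower with D3T, OLT and TBD. Cyp7a1 and many bile acid genes are known to cycle over the day, and 5 of 17 clock genes were tested, of which 2, 2 and 3 were called lower with D3T, OLT and TBD. Per2 fell by 1.71, 1.89 and 1.93 (adjusted p = 1.35e-06, 7.58e-07 and 8.24e-07) and Nr1d2 by 1.65, 1.57 and 2.12 (adjusted p = 0.001, 0.00238 and 0.000252), and Dbp fell with TBD by 2.39 (adjusted p = 0.00837). The clock list averaged 5.86 to 6.15 in D3T, 5.48 to 6.33 in OLT and 4.73 to 5.69 in TBD livers, against 6.42 to 7.00 in vehicle livers. No label gives the hour at which livers were taken.

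Of 10 Kupffer cell and macrophage markers 5 were tested, and Aif1, Clec4f, C1qb and Cd74 were called lower with each compound. The Cd74 call with TBD (-0.95, adjusted p = 0.0496) was lost in 19 of 29 alternatives, among them leaving out any vehicle array, D3T replicate 1 or 3, OLT replicate 1, 2 or 4 or TBD replicate 1, 2 or 3. Its calls with D3T and OLT were lost in 5 and 4 of 29, among them leaving out vehicle replicate 4 for both, D3T replicate 1, 2 or 3 for D3T and OLT replicate 3 for OLT. The Kupffer cell and macrophage list averaged 6.86 to 7.09 in D3T, 6.57 to 7.05 in OLT and 6.72 to 7.19 in TBD livers, against 7.75 to 8.22 in vehicle livers. The defining marker Clec4f still read 8.19 to 8.54, 7.80 to 8.38 and 7.86 to 8.68 in D3T, OLT and TBD livers, against 9.08 to 9.95 in vehicle livers. Of 10 stellate cell markers 4 were tested, and 3, 2 and 3 were called lower with D3T, OLT and TBD. None was called higher, but at an unadjusted p under 0.05 by limma 0, 1 and 1 were higher with D3T, OLT and TBD. The list averaged 5.63 to 5.93 in D3T, 6.02 to 7.55 in OLT and 6.03 to 6.92 in TBD livers, against 7.11 to 7.54 in vehicle livers, so that the OLT arrays overlapped the vehicle arrays. Vim, an intermediate filament of mesenchymal cells, fell by 1.33, 0.98 and 0.79 with D3T, OLT and TBD (adjusted p = 0.00177, 0.0176 and 0.045), with the TBD call lost in 16 and the OLT call in 4 of 29 alternatives. The collagen gene Col1a1 differed by -4.01, -2.16 and -2.84 (adjusted p = 0.000762, 0.0452 and 0.01), lay below the array median on 6 of 16 arrays, and lost its OLT call in 17 of 29 alternatives. The collagen gene Col3a1 fell by 0.83 with D3T (adjusted p = 0.0106) and by 0.74 with TBD (adjusted p = 0.0247), the TBD call being lost in 6 of 29, and differed by -0.21 with OLT (adjusted p = 0.725). Of 8 endothelial markers 4 were tested, and 1, 0 and 1 were called lower with D3T, OLT and TBD by limma, where 1 was lower with OLT at an unadjusted p under 0.05. That marker was Lyve1, a hyaluronan receptor of liver sinusoidal endothelium, with differences of -1.92, -0.76 and -1.21 (adjusted p = 0.000747, 0.139 and 0.0172), and its TBD call was lost in 5 of 29 alternatives. The endothelial list averaged 4.33 to 4.96 in D3T, 4.68 to 5.56 in OLT and 4.31 to 5.01 in TBD livers, against 4.92 to 5.16 in vehicle livers. Its median differences were small, at -0.10, -0.05 and -0.07 with D3T, OLT and TBD. Of 11 tested acute phase genes, 1 was called higher and 4 lower with D3T, 1 lower with OLT, and 1 higher and 1 lower with TBD. The acute phase median differences were -0.07, -0.13 and 0.03 with D3T, OLT and TBD. Of 9 tested hepatocyte markers, 2 were called higher with D3T, 1 lower with OLT and none with TBD, where 2 were higher and 1 lower at an unadjusted p under 0.05. The part of any of these in the falls of the members was not tested.

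The genes whose values lay closest to each member over the 16 arrays, after centring each gene on its vehicle mean, were found by root mean square distance in log2 units. For Fgfr4 they were Nfia at 0.33, Man1a1 at 0.35 and Zfand6 at 0.35, beside a median of 1.29 over all genes. For Scp2 they were Cdo1 at 0.16, Dact2 at 0.17 and Acsl1 at 0.20 (median 0.65), and for Akr1c14 they were Ppm1a at 0.19, Cyba at 0.19 and Dync1i2 at 0.21 (median 0.69). For Baat they were Slc10a1 at 0.10, Amy2a3 at 0.14 and Patj at 0.15 (median 0.44), and for Hsd3b7 they were Slc10a1 at 0.14, Cnot2 at 0.15 and Apoh at 0.16 (median 0.41). For Cyp27a1 they were Lipa, Oxr1 and Acadm, each at 0.17 (median 0.54). For Cyp7a1 no gene was as close, with Cnn3 and Man2c1 at 0.64 and Gphn at 0.71 (median 1.24). Slc10a1 was the closest gene to both Baat and Hsd3b7, and its levels were 11.88, 12.33, 12.14 and 11.78 in the D3T livers, 12.28, 12.41, 12.38 and 12.51 in the OLT livers, 12.37, 12.22, 12.02 and 12.13 in the TBD livers, and 12.45, 12.68, 12.36 and 12.58 in the vehicle livers.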

How the data were processed

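The authors' deposited table holds log2 values of 8740 probe sets on 16 arrays, and the submitters' processing notes name GCRMA without a version. GCRMA compresses values near background, so differences of dim probe sets may be understated. The deposited log2 values were used unchanged. Gene names came from the platform annotation (7006 probe sets with 1 symbol, 308 with several, 1426 with none), and 6985 were matched to GRCr8 by Entrez ID. Probe sets were tested when at least 4 of 16 arrays read above their own 40th percentile. Group means were fitted over all 16 arrays with limma 3.58.1 in R 4.3.3 (residual df 12, prior df 2.41, median residual SD 0.195), with two-sided contrasts and Benjamini-Hochberg adjustment over 5323 probe sets, and the fit was tested on simulated data. Errors of differences are SE of the fit, intervals are 95%, and 4 arrays a group limit the precision. The rats were housed singly, and the spread between arrays holds animal and technical parts.

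The members and lists were chosen with earlier results of these data known. All member probe sets are given, and a gene is represented by its brightest tested probe set. Of each list, up to 4 genes with the smallest adjusted p for the mean of the 3 compounds could be named, with Nr0b2, Nr1h4, Klb, Cyp8b1, Cyp7b1, Akr1d1, Amacr, Acox2, Slc10a1 and Abcb11 wherever measured. Zfp36l1, Hsd17b10, Abcc2, the second probe set of Akr1d1, Col1a1, Col3a1, Vim and Lyve1 were chosen after their values were seen. Replicate numbers did not visibly pair the arrays. Of 24 same-numbered pairs, 8 had deviations correlated above 0.1 (median r -0.0082), beside 23 of 72 different-numbered pairs (median r -0.0021). Alternatives covered the filter, normalization, variance prior, array weights, floor, replicate block, probe sets of a gene, arrays in the fit and each array left out. Chosen after seeing the data were a fit without both arrays that stand apart and a covariate for the 40th percentile of each array. Figures used Python 3.11.15, pandas 2.3.3 and matplotlib 3.10.9.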

Additional observations from a re-analysis of the deposited data

Results flagged for a closer look

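Of 48 groups of 4 arrays (12 member probe sets in 4 groups), 4 held a single array whose gap to the nearest other array, as a share of the group's range, was above Dixon's 95% critical value. Chance flags about 1 group in 20. For Cyp27a1 Y07534cds_s_at, D3T replicate 2 was the highest of its group at 10.26. For Akr1c14 D17310_s_at, TBD replicate 4 was the highest at 11.28. For Fgfr4 M91599mRNA_at, OLT replicate 1 was the highest at 5.305 and TBD replicate 4 the highest at 4.415. The last 3 concern the 2 arrays with the highest values on the second principal component over the tested probe sets.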

How the results depend on the processing

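The calls of Fgfr4 M91599mRNA_g_at and Scp2 M62763complete_seq_at with each compound, of Akr1c14 D17310_s_at with D3T and TBD and of Baat with D3T passed in all 29 alternatives. The number of member probe sets called became 11 with D3T, 7 with OLT and 10 with TBD under array weights, whose estimation stopped before its tolerance was reached, and 5 with OLT without both arrays that stand apart. With TBD it was 3 without a filter, with centred medians and in the fit of only the groups compared, and from 3 to 7 when each array was left out in turn. D3T against OLT gave 1 member under array weights and D3T against TBD gave 1 under the 40th percentile covariate. With the replicate number as a block, 6, 3 and 4 member probe sets were called with D3T, OLT and TBD. The block ended the calls of Hsd3b7 with D3T (adjusted p = 0.0908) and TBD (adjusted p = 0.091), Cyp27a1 M38566mRNA_s_at with TBD (adjusted p = 0.0665), Scp2 M58287_s_at with TBD (adjusted p = 0.0737) and, for the mean of the 3 compounds, Hsd3b7 (adjusted p = 0.053), and it made a call of Akr1c14 S35751_f_at with TBD (adjusted p = 0.0462). It did not change the other member calls.

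Over all probe sets, array weights called 2263, 1066 and 1333 with D3T, OLT and TBD and 2021 for the mean of the 3 compounds, against 981, 600, 693 and 1067 as reported. The mean of probe sets, which tests fewer rows, called 528, 354, 401 and 607. The 40th percentile covariate called 1741 with D3T and 1710 for the mean of the 3 compounds, centred medians 361 with OLT and 426 with TBD, and the fit of only the groups compared 361 with TBD. D3T against OLT gave 57 as reported, 92 after quantile normalization, 171 with array weights, 28 with the mean of probe sets, 88 without both arrays that stand apart, 149 with the covariate and 30 to 84 over single arrays left out. D3T against TBD gave 35 as reported, 13, 152, 8, 14 and 117 with centred medians, array weights, only the groups compared, the mean of probe sets and the covariate, and 19 to 41 over single arrays left out. TBD against OLT gave 3, 1 with the mean of probe sets, and 3 to 6 over single arrays left out. The cause was not tested.

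Among the member and named genes, only uncalled differences changed sign. Against vehicle, Cyp27a1 Y07534cds_s_at became 0.00499 with D3T (quantile normalization) and Cyp7a1 J05509Complete_seq_i_at -0.0407 with TBD (array weights), and that Cyp7a1 probe set ran from -0.056 to 0.12 with OLT and from -0.0785 to 0.0999 with TBD over single arrays left out. Akr1d1 became -0.0228 and -0.0204 with D3T (quantile normalization, centred medians), 0.0363, 0.47 and 0.0258 with OLT (array weights, mean of probe sets, without both arrays that stand apart) and 0.16 with TBD (mean of probe sets), and ran from -0.0424 to 0.12 with D3T and from -0.14 to 0.0258 with OLT over single arrays. Nr1h4 with TBD became -0.00567 without both arrays and ran from -0.00567 to 0.0972. Slc10a1 with OLT became 0.0193 (array weights), and Abcb11 became 0.0659 with OLT and 0.00802 with TBD (quantile normalization) and ran from -0.13 to 0.0368 with OLT. For D3T against OLT, Cyp7a1 J05460_s_at became 0.0413 (array weights) and 0.20 (without both arrays; range -0.95 to 0.20), Akr1c14 S35751_f_at 0.0651 and 0.0418 (same settings; -0.28 to 0.0418), Cyp27a1 0.0104 and Scp2 -0.087 (mean of probe sets), and Scp2 M62763complete_seq_at ran from -0.00232 to 0.15. For TBD against OLT, Cyp27a1 M38566mRNA_s_at became 0.0922 (array weights) and 0.0139 (mean of probe sets; -0.13 to 0.13), and ranges were -0.38 to 0.14 and -0.25 to 0.20 for Fgfr4 M91599mRNA_at and M91599mRNA_g_at, -0.0793 to 0.0571 for Cyp7a1 J05509Complete_seq_i_at and -0.0444 to 0.12 for Cyp27a1 Y07534cds_s_at. For D3T against TBD, Hsd3b7 became -0.0434 (centred medians; -0.0787 to 0.11), Akr1c14 0.13 (mean of probe sets), Scp2 M58287_s_at 0.073 and 0.00433 (without both arrays, covariate; -0.14 to 0.10), and Fgfr4 M91599mRNA_at 0.00287 (without both arrays; -0.19 to 0.00287), and Cyp7a1 J05460_s_at ran from -0.15 to 0.62. Renewed scaling moved the median of all differences by less than 0.1.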
